A study of Homo sapiens with 6 samples.

Results

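The 10 genes described here are regulators and effectors of the integrated stress response, the transcription programme of the factor ATF4, together with the secreted stress cytokine gene GDF15. They were taken by name, as a list of ATF4, ATF5, CEBPB, CEBPG, DDIT3, TRIB3, CHAC1, PPP1R15A, SESN2 and GDF15. The list was chosen with earlier results of these data known, so counts among these genes are a description and not independent evidence. The genes are 10 of 60651 gene rows, and all 10 were among the 15589 genes with enough counts to test. RNA came from MDA-MB-231 cells, an established human line of triple-negative breast cancer labelled wild type. The cells had received the solvent DMSO alone, or AF-EAE at 75 or 150 µg/ml, for 24 h, and each of the 3 groups had 2 libraries. AF-EAE was made with ethyl acetate from the herb Antenoron filiforme, and the sources used here do not name its constituents. All groups are the same single line, grown alone in culture. The labels number the libraries as biological replicates without saying that each came from its own culture. The p-values thus set group differences only against the spread between these libraries, pooled in part over genes.

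In the integrated stress response, protein kinases that sense unfolded protein, missing amino acids, double-stranded RNA or mitochondrial and heme stress phosphorylate the initiation factor eIF2. General translation then falls, while mRNAs with upstream reading frames such as that of ATF4 are translated more. ATF4 dimerizes with C/EBP proteins and switches on genes for amino acid supply, redox balance and feedback on the pathway itself, and GDF15 is a secreted product used as a marker of the response in cells and blood. RNA levels show neither phosphorylation of eIF2 nor the translation of ATF4.

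Of the 10 genes, 9 rose at 150 µg/ml and ATF5 alone fell. Levels are read counts scaled by TMM to a common library total and called CPM, and a gene passed the test when edgeR's quasi-likelihood F-test gave an adjusted p under 0.05 over all genes tested. At 75 µg/ml against DMSO, 8 genes rose, ATF5 fell and CEBPG did not pass, where 38.6% of all genes passed in either direction, 19.2% rose and 19.4% fell. At 150 µg/ml against DMSO, 9 rose and 1 fell, where 51.5% of all genes passed, 25.8% rose and 25.7% fell. At 150 against 75 µg/ml, 9 rose and ATF5 did not pass, where 22% of all genes passed, 9.51% rose and 12.5% fell. A rise of 1 or more on the log2 scale was passed by 5 genes at 75 µg/ml (4.75% of all genes), 7 at 150 µg/ml (7.73%) and 3 at 150 against 75 µg/ml (0.834%). The median log2 fold change of the 10 genes was 0.96 at 75 µg/ml and 1.56 at 150 µg/ml against DMSO, beside 0.01 and 0.03 over all genes tested. The libraries did not overlap in any of the 10 genes between 75 µg/ml and DMSO (68.5% of all genes), 150 µg/ml and DMSO (74.8%) or 150 and 75 µg/ml (60.6%). In 9 of the 10, both libraries at 150 µg/ml lay above both at 75 µg/ml and these above both DMSO libraries, an order that 14.1% of all genes tested also had. A rise at 75 µg/ml followed by a further rise at 150 µg/ml passed both tests in 8 of the 10, against 4.39% of all genes tested. The doses share the same DMSO libraries, so the comparisons are not independent of each other.

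**Figure D1:**
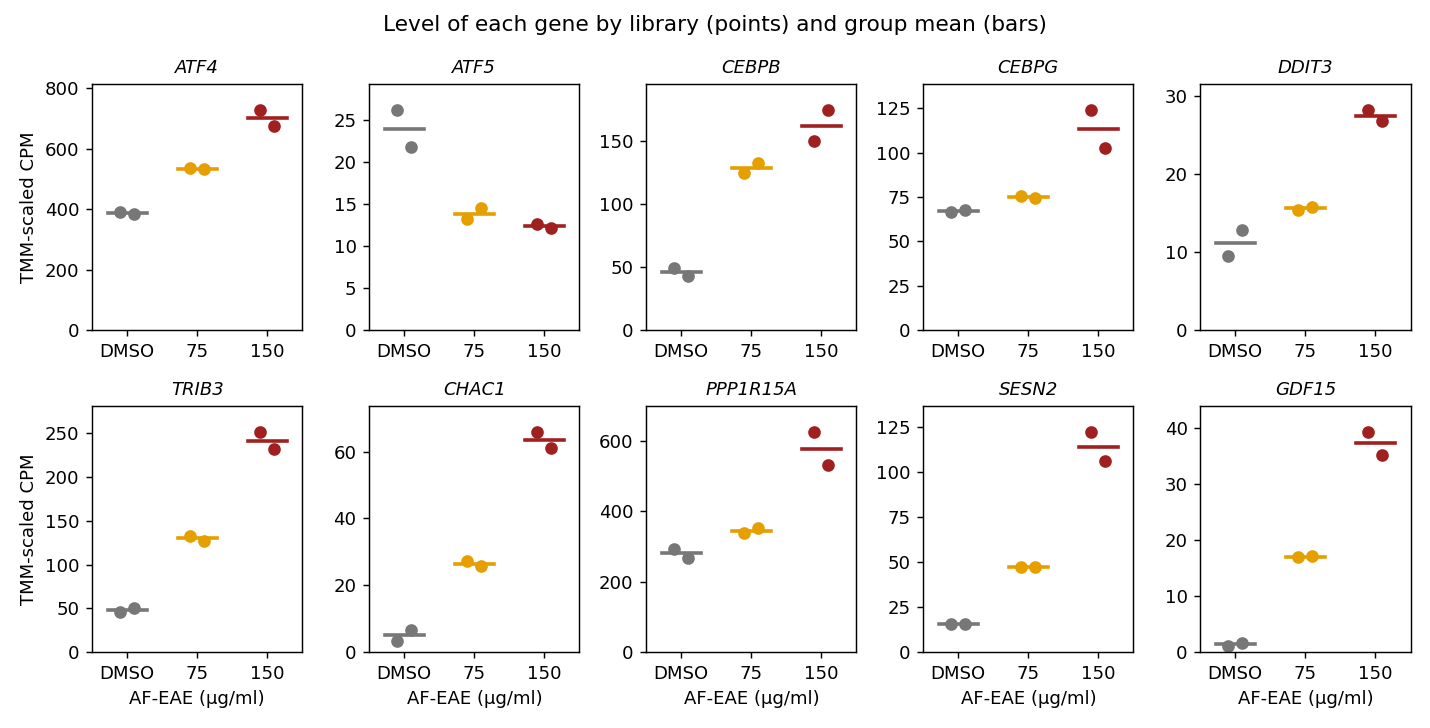
Level of each of the 10 genes in TMM-scaled CPM (vertical axis, linear, from 0, scaled per gene) in every library (points) with the group mean (horizontal bars), for DMSO and AF-EAE at 75 and 150 µg/ml. The points climb in steps with dose in 9 panels, and the ATF5 panel runs the other way, with DMSO points of 26.2 and 21.7 CPM above all treated points.

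The libraries held 15621103 to 17113722 gene counts each, and 3 counts equal 0.175 to 0.192 CPM, a floor that covers counting error only. Replicates correlated at 0.9899 to 0.991 (Pearson, log2 CPM), and each pair differed by more than counting noise. The 6 markers of a mesenchymal basal line summed to 4325 to 4487 CPM in DMSO libraries, 3154 to 3237 CPM at 75 µg/ml and 2429 to 2474 CPM at 150 µg/ml. All 6 of them fell at both doses (4 of 6 at 75 µg/ml with total counts in place of TMM), alongside the rises described here, and their part in these rises was not tested. The 8 luminal or receptor-positive markers summed to 97.3 to 101 CPM in DMSO libraries, 110.3 to 110.4 CPM at 75 µg/ml and 89.4 to 95.9 CPM at 150 µg/ml, most of it ERBB2, with ELF5 at 0 in all libraries, PGR at 0 or 1 count in each and ESR1 at most 0.917 CPM. Of 5 leukocyte markers, 3 were at 0 in all 6 libraries, PTPRC and CD3E among them, and the sum stayed at 0.196 to 0.252 CPM with DMSO, 0.36 to 0.428 CPM at 75 µg/ml and 0.302 to 0.348 CPM at 150 µg/ml. The 4 endothelial markers summed to 16.3 to 17.7 CPM, 13.2 to 16.6 CPM and 10.8 to 10.9 CPM in the same order of groups, mostly KDR. In bulk RNA, a change in how many cells express a gene and a change in RNA per cell cannot be told apart.

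ATF4, the factor at the centre of the response, had the highest level per exon length of the 10 in every group. Its gene lies on chromosome 22 at 39519695 to 39522685, plus strand (ENSG00000128272; GENCODE 29 on GRCh38, as for all positions given here). ATF4 had 391 and 384 CPM in DMSO libraries, 535 and 533 CPM at 75 µg/ml and 728 and 674 CPM at 150 µg/ml. The 3 groups stood apart without overlap, and the spread between replicates was small beside each step. ATF4 rose 1.38-fold at 75 µg/ml (log2 fold change 0.46, SE 0.0469, adjusted p = 6.2e-07 in edgeR) and 1.81-fold at 150 µg/ml (0.86, SE 0.0469, adjusted p = 9.6e-11). From 75 to 150 µg/ml it rose by a further 0.39 (SE 0.0462, adjusted p = 1.1e-05).

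CEBPG and CEBPB encode leucine zipper proteins with which ATF4 can pair on DNA. CEBPG (chromosome 19, 33373330 to 33382686, plus strand) had 66.6 and 67.9 CPM in DMSO libraries, 75.6 and 74.4 CPM at 75 µg/ml and 124 and 103 CPM at 150 µg/ml. The groups did not overlap, but the change at 75 µg/ml was 0.16 on the log2 scale and did not pass (SE 0.0791, adjusted p = 0.128 in edgeR). That call depended on the scaling: with total counts in place of TMM the value was 0.28 and passed (adjusted p = 0.00828). At 150 µg/ml CEBPG rose 1.68-fold over DMSO (log2 fold change 0.75, SE 0.077, adjusted p = 2.8e-07) and 1.51-fold over 75 µg/ml (0.59, SE 0.0759, adjusted p = 2.7e-05).

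CEBPB (chromosome 20, 50190734 to 50192689, plus strand), a gene of 1 exon that is also a mediator of inflammatory transcription, had risen strongly at the lower dose already. It had 49.4 and 42.6 CPM in DMSO libraries, 124.5 and 132 CPM at 75 µg/ml and 149 and 174 CPM at 150 µg/ml. The gap between DMSO and 75 µg/ml was far wider than that between the doses. CEBPB rose 2.79-fold at 75 µg/ml (log2 fold change 1.48, SE 0.0815, adjusted p = 3.9e-10 in edgeR) and 3.52-fold at 150 µg/ml (1.81, SE 0.0807, adjusted p = 6.7e-12) over DMSO. The rise of 0.34 from 75 to 150 µg/ml (SE 0.0729, adjusted p = 0.00314) rested on 1 library, since without replicate 2 at 150 µg/ml it was 0.22 and did not pass (adjusted p = 0.074). Of the exonic length of CEBPB, 11.81% overlaps the antisense gene CEBPB-AS1, which was at 1.01 to 2.5 CPM and did not pass at either dose. The sources used here do not say whether strand was used in counting. Reads ambiguous between genes were set aside, so a gene that overlaps another may be read too low, by an unknown amount.

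DDIT3 encodes CHOP, a target of ATF4 that is linked to cell death under long stress. It lies on chromosome 12 at 57516588 to 57521737 on the minus strand. DDIT3 had 9.46 and 12.8 CPM in DMSO libraries (150 and 195 counts), 15.4 and 15.8 CPM at 75 µg/ml (252 and 263 counts) and 28.2 and 26.7 CPM at 150 µg/ml (466 and 460 counts). All 3 groups stayed apart, with the widest gap between replicates in DMSO. DDIT3 rose 1.4-fold at 75 µg/ml (log2 fold change 0.49, SE 0.138, adjusted p = 0.00928 in edgeR), a call that was lost without DMSO replicate 1, where the value was 0.29 (adjusted p = 0.16). At 150 µg/ml it rose 2.47-fold over DMSO (1.31, SE 0.132, adjusted p = 2.3e-07) and 1.76-fold over 75 µg/ml (0.81, SE 0.125, adjusted p = 1.7e-04). As much as 39.63% of its exonic length overlaps other genes, and the part of each was not computed. Among them is MARS1, a methionyl-tRNA synthetase gene on the other strand that itself rose by 0.52 and 0.77 at 75 and 150 µg/ml. MBD6, also on the other strand, was at 0.17 and 0.45 (adjusted p = 0.109 and 1.1e-04 in edgeR).

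ATF5, a relative of ATF4 whose translation is controlled in a similar way and which takes part in mitochondrial stress signalling, was the exception. Its gene lies on chromosome 19 at 49928702 to 49933935 on the plus strand. ATF5 had 26.2 and 21.7 CPM in DMSO libraries, 13.2 and 14.5 CPM at 75 µg/ml and 12.6 and 12.1 CPM at 150 µg/ml. Both doses lay well below DMSO and close to each other. ATF5 fell to 0.578 of the DMSO level at 75 µg/ml (log2 fold change −0.79, SE 0.124, adjusted p = 7.0e-05 in edgeR) and to 0.517 of it at 150 µg/ml (−0.95, SE 0.125, adjusted p = 5.6e-06). Between 150 and 75 µg/ml the difference was −0.16 (SE 0.131, adjusted p = 0.433). Other genes overlap 23.7% of its exonic length, and the part of each was not computed. Among them is NUP62, a nuclear pore gene on the other strand. NUP62 fell by 0.31 and 0.44 at 75 and 150 µg/ml on the log2 scale (adjusted p = 3.7e-04 and 6.3e-06 in edgeR). IL4I1, also on the other strand, was too low to test.

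TRIB3, a pseudokinase that binds ATF4 and CHOP and dampens their activity, rose at every dose. Its gene lies on chromosome 20 at 362835 to 397559, plus strand. TRIB3 had 45.8 and 50.3 CPM in DMSO libraries, 133 and 127 CPM at 75 µg/ml and 251 and 231 CPM at 150 µg/ml. Replicates lay within a narrow band in each of the 3 groups, far from the next. TRIB3 rose 2.7-fold at 75 µg/ml (log2 fold change 1.44, SE 0.066, adjusted p = 4.3e-11 in edgeR) and 5.02-fold at 150 µg/ml over DMSO (2.33, SE 0.0646, adjusted p = 2.4e-14), and by 0.89 from 75 to 150 µg/ml (SE 0.0582, adjusted p = 2.0e-08).

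PPP1R15A encodes GADD34, the inducible subunit that brings protein phosphatase 1 to eIF2 and so ends the response. The gene lies on chromosome 19 at 48872392 to 48876057, plus strand. PPP1R15A had 294 and 268 CPM in DMSO libraries, 339 and 352 CPM at 75 µg/ml and 625 and 531 CPM at 150 µg/ml. Its abundance was high in DMSO already, and the clear shift came with the higher dose. PPP1R15A rose 1.23-fold at 75 µg/ml (log2 fold change 0.30, SE 0.0654, adjusted p = 0.00151 in edgeR) and 2.06-fold at 150 µg/ml over DMSO (1.04, SE 0.065, adjusted p = 5.0e-10). Over 75 µg/ml, the 150 µg/ml libraries were 1.67-fold higher (0.74, SE 0.0642, adjusted p = 4.4e-07).

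CHAC1, an enzyme that degrades glutathione and a target of ATF4, had the second largest rise of the 10 over DMSO at each dose. Its gene lies on chromosome 15 at 40952962 to 40956519, plus strand. CHAC1 had 3.47 and 6.61 CPM in DMSO libraries (55 and 101 counts), 27.4 and 25.6 CPM at 75 µg/ml (448 and 427 counts) and 65.8 and 61.1 CPM at 150 µg/ml (1089 and 1052 counts). Relative to their mean, the DMSO replicates differed most from each other, at a level far under the treated ones. CHAC1 rose 5.26-fold at 75 µg/ml (log2 fold change 2.40, SE 0.17, adjusted p = 8.3e-09 in edgeR) and 12.6-fold at 150 µg/ml over DMSO (3.66, SE 0.158, adjusted p = 4.5e-12), and by 1.26 from 75 to 150 µg/ml (SE 0.123, adjusted p = 1.6e-06). With 1 library left out at a time, the log2 changes over DMSO ran from 2.0 to 2.93 at 75 µg/ml and from 3.26 to 4.19 at 150 µg/ml.

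SESN2, a leucine-binding inhibitor of mTORC1 signalling and a target of ATF4 and NRF2, lies on chromosome 1 at 28259527 to 28282491, plus strand. SESN2 had 15.8 and 15.4 CPM in DMSO libraries, 47.4 and 47.3 CPM at 75 µg/ml and 122 and 106 CPM at 150 µg/ml. Replicates were almost equal in DMSO and at 75 µg/ml. SESN2 rose 3.04-fold at 75 µg/ml (log2 fold change 1.60, SE 0.0935, adjusted p = 7.6e-10 in edgeR) and 7.31-fold at 150 µg/ml over DMSO (2.87, SE 0.0883, adjusted p = 7.4e-14), and the step from 75 to 150 µg/ml was 1.26 (SE 0.0761, adjusted p = 8.5e-09).

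GDF15, a secreted cytokine of the TGF-beta family that acts on the brainstem to lower appetite and is a target of ATF4 and CHOP, had the largest rise of the 10 over DMSO at each dose. The gene lies on chromosome 19 at 18374731 to 18389176, plus strand. GDF15 had 1.20 and 1.57 CPM in DMSO libraries (19 and 24 counts), 17.0 and 17.1 CPM at 75 µg/ml (278 and 285 counts) and 39.3 and 35.3 CPM at 150 µg/ml (651 and 608 counts). DMSO libraries held few GDF15 reads and differed most relative to their mean, but replicates lay close together beside the gaps between groups. GDF15 rose 12.3-fold at 75 µg/ml (log2 fold change 3.62, SE 0.178, adjusted p = 9.6e-11 in edgeR), 27.0-fold at 150 µg/ml over DMSO (4.75, SE 0.164, adjusted p = 2.7e-13) and 2.19-fold at 150 over 75 µg/ml (1.13, SE 0.11, adjusted p = 1.5e-06). The DMSO counts are small, so the folds over DMSO are less precise than the fold between the doses.

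GFRAL and RET, the receptor of GDF15 and its signalling partner, had 0 counts in all 6 libraries, which allows up to 0.175 to 0.192 CPM in a library. FURIN, which encodes a protease that can cleave the precursor of GDF15, had 230 and 231 CPM in DMSO libraries, 216 and 206 CPM at 75 µg/ml and 165 and 171 CPM at 150 µg/ml. FURIN fell by 0.46 at 150 µg/ml (SE 0.0498, adjusted p = 5.7e-07 in edgeR), and the difference at 75 µg/ml was −0.13 (adjusted p = 0.0502). Of the 4 tested genes of receptor and processing, FURIN fell at 150 µg/ml and the other 3 did not pass at either dose. With DESeq2 size factors 1 of the 4 fell at 75 µg/ml, and with total counts 2 rose and 1 fell at 150 µg/ml. Among 17 other GDF, BMP and inhibin genes, 6 were expressed enough to test, of which 2 rose and 2 fell at 75 µg/ml, and 2 rose and 3 fell at 150 µg/ml, whereas with total counts 2 rose and 1 fell at each dose. BMP4 fell by 0.64 and 1.06 at 75 and 150 µg/ml, and BMP6 by 0.86 and 0.87, the BMP6 calls being lost with total counts (adjusted p = 0.0618 and 0.0647). INHBE, which encodes an inhibin beta subunit, passed as higher at both doses (adjusted p = 0.00968 and 6.7e-04 in edgeR). INHBE was counted 3 times in one DMSO library and 1 time in the other, at or under the floor of 3 counts, so no fold is given. Its counts were 8 and 19 with 75 µg/ml, and 22 in each library with 150 µg/ml.

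The doses are equally spaced, so the second step (150 minus 75 µg/ml) was compared with the first (75 minus DMSO) on the log2 scale in the same edgeR fit. On this scale the second step was smaller than the first in 4 genes and larger in 2. In 4 the difference did not pass, where 13.3% of all genes passed, 5.86% with a larger second step (0.597% by 1 or more) and 7.4% with a smaller one. Mean CPM in DMSO, 75 and 150 µg/ml libraries was 1.38, 17.1 and 37.3 for GDF15. It was 5.04, 26.5 and 63.4 for CHAC1 and 48.1, 130 and 241 for TRIB3. In CPM the second step of these genes was thus the larger. For CEBPB (46.0, 128 and 162 CPM) it was the smaller on both scales. The log2 difference was greatest in GDF15, with a second step of 1.13 and a first step of 3.62 (difference −2.49, SE 0.254, adjusted p = 8.4e-06). CEBPB followed, with a second step of 0.34 and a first step of 1.48 (−1.14, SE 0.131, adjusted p = 2.4e-05). For CHAC1 the difference was also −1.14 (SE 0.253, adjusted p = 0.0063), but it was −0.74 without DMSO replicate 1 and did not pass in DESeq2 (−1.13, adjusted p = 0.199). TRIB3 had a difference of −0.54 (SE 0.106, adjusted p = 0.00257), which was −0.46 and did not pass without replicate 1 at 75 µg/ml (adjusted p = 0.0557).

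PPP1R15A and CEBPG had the larger second step. The difference was 0.44 for PPP1R15A (SE 0.113, adjusted p = 0.0146 in edgeR) and 0.44 for CEBPG (SE 0.135, adjusted p = 0.0413). Neither call was firm: that of PPP1R15A was lost in DESeq2 (0.46, adjusted p = 0.0963) and without replicate 1 at 75 µg/ml (0.41, adjusted p = 0.0974). That of CEBPG was lost in DESeq2 (0.45, adjusted p = 0.0522), with limma-voom (0.43, adjusted p = 0.0531), with total counts (0.37, adjusted p = 0.0803), without replicate 1 or 2 at 75 µg/ml (0.47 and 0.41, adjusted p = 0.13 and 0.184) and without replicate 1 at 150 µg/ml (0.31, adjusted p = 0.123). For ATF4 (−0.07, SE 0.0804, adjusted p = 0.637), SESN2 (−0.34, SE 0.146, adjusted p = 0.14), DDIT3 (0.32, SE 0.229, adjusted p = 0.397, and 0.09 to 0.53 with 1 library left out) and ATF5 (0.63, SE 0.222, adjusted p = 0.0711) the steps did not differ by the test. The ATF5 difference was 0.76 and passed without DMSO replicate 2 (adjusted p = 0.0282), the DMSO library with the lower ATF5 level. Replicate 1 at 150 µg/ml lay above replicate 2 in 9 of the 10 genes, all but CEBPB, where this held for 49.3% of all genes tested.

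**Figure D2:**
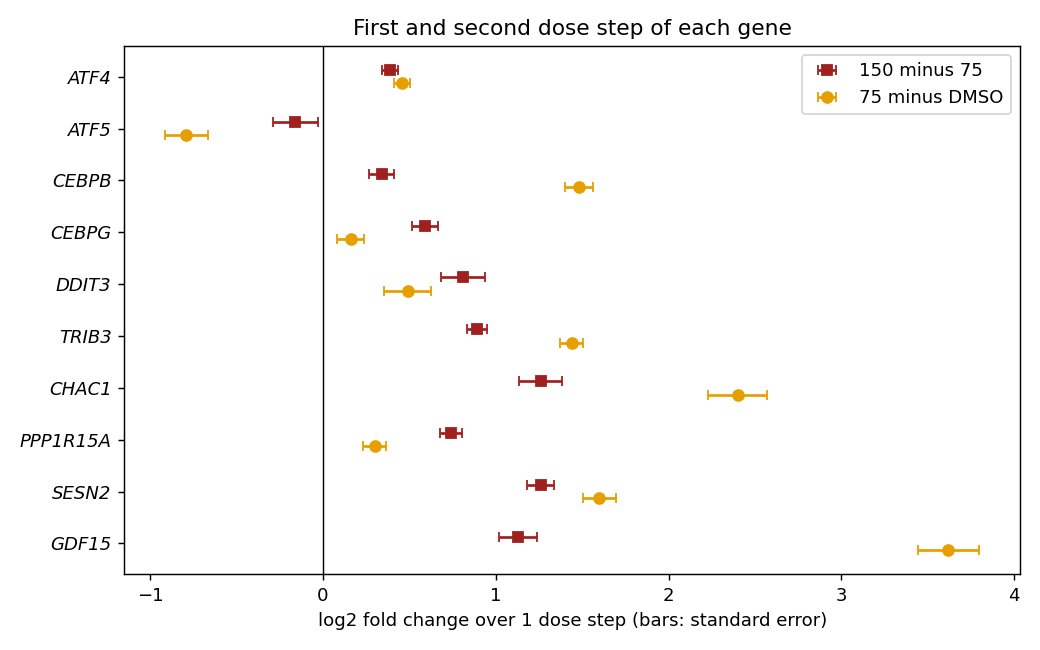
Log2 fold change of each gene over the second dose step (150 minus 75 µg/ml, squares) and the first (75 minus DMSO, circles), with standard errors as bars. For GDF15 the square at 1.13 lies far left of the circle at 3.62, for PPP1R15A the square at 0.74 lies right of the circle at 0.30, and for ATF5 both symbols lie left of 0.

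Set side by side per kilobase of exon, the levels of the 10 genes spanned a wide range in every group. In DMSO libraries, ATF4 stood at 154 ± 2.07 CPM per kb and PPP1R15A at 90.8 ± 5.98 CPM per kb, followed by CEBPB, CEBPG, TRIB3, DDIT3, ATF5, SESN2 and CHAC1, with GDF15 last at 0.663 ± 0.127 CPM per kb (SD, n = 2 each). The DDIT3 and ATF5 libraries overlapped in this order, at means of 8.5 ± 1.79 and 8.11 ± 1.06 CPM per kb. At 75 µg/ml the order was ATF4 (212 ± 0.579 CPM per kb), PPP1R15A, CEBPB, TRIB3, CEBPG, SESN2, CHAC1, DDIT3, GDF15 and ATF5 (4.68 ± 0.305 CPM per kb). At 150 µg/ml it was ATF4 (279 ± 15.0 CPM per kb), PPP1R15A (187 ± 21.4 CPM per kb), CEBPB, TRIB3, SESN2, CHAC1, CEBPG, DDIT3, GDF15 and ATF5 (4.19 ± 0.12 CPM per kb), with overlapping libraries for SESN2 and CHAC1 (33.0 ± 3.32 and 30.8 ± 1.63 CPM per kb). GDF15 reached 17.9 ± 1.37 CPM per kb at 150 µg/ml and lay above ATF5, which it had been far below in DMSO. Exon length was taken as the union of annotated exons, so a gene read mostly from a short transcript is placed too low. Stretches that overlap other genes (39.63% of DDIT3, 23.7% of ATF5 and 11.81% of CEBPB) stayed in the length. These 3 genes may thus also be placed too low, and their ranks are uncertain.

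**Figure D3:**
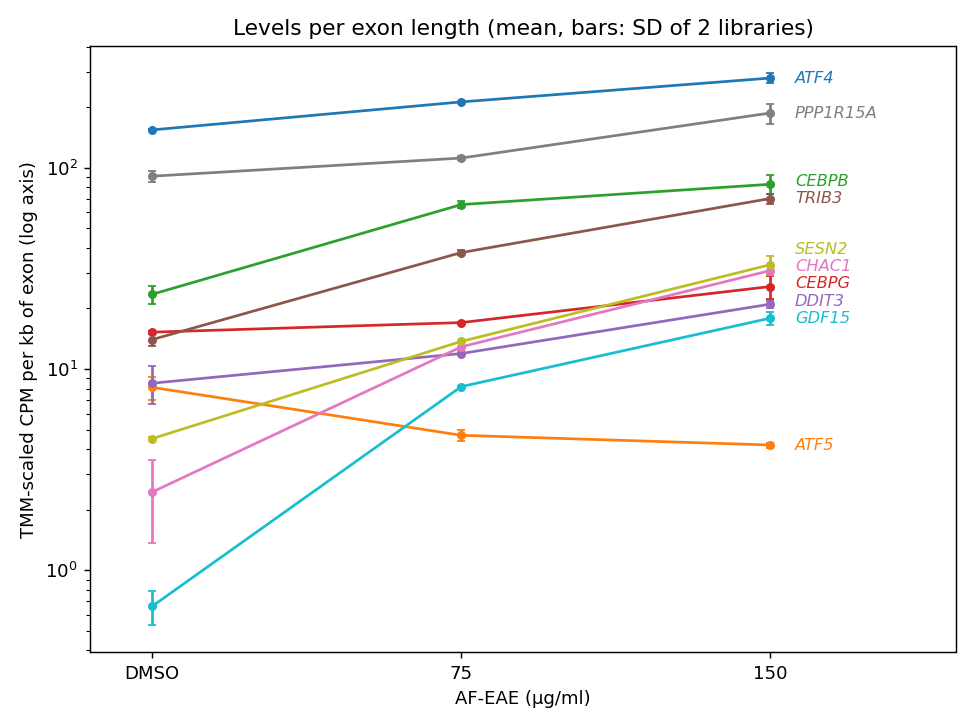
Mean TMM-scaled CPM per kb of exon (vertical axis, log scale) of the 10 genes with DMSO and at 75 and 150 µg/ml AF-EAE, with bars for the SD of 2 libraries. GDF15 is the lowest point in DMSO (0.663 CPM per kb) and crosses ATF5, the one falling line, on the way to 17.9 CPM per kb at 150 µg/ml.

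Upstream of ATF4, RNA of the eIF2 kinases and of eIF2 itself mostly did not rise. Of the 4 kinase genes, 2 fell and 2 did not pass at 75 µg/ml, and 1 rose and 3 fell at 150 µg/ml, with medians of −0.12 and −0.21. Much of this depended on scaling: with total counts, under which the median of all genes was 0.14 and 0.22 in place of 0.01 and 0.03, 1 rose and 1 fell at each dose. EIF2AK4, which encodes the amino acid sensor GCN2, fell under both scalings. It had 181 and 189 CPM in DMSO libraries, 135 and 135 CPM at 75 µg/ml and 105 and 111 CPM at 150 µg/ml, with log2 fold changes of −0.46 (SE 0.0526, adjusted p = 2.5e-06 in edgeR) and −0.78 (SE 0.0534, adjusted p = 1.6e-09), and of −0.33 and −0.59 with total counts. EIF2AK3, which encodes PERK, the sensor of unfolded protein in the endoplasmic reticulum, rose by 0.36 at 150 µg/ml (SE 0.0961, adjusted p = 0.0042), while the value of 0.19 at 75 µg/ml did not pass (adjusted p = 0.134). EIF2AK1, which encodes the heme- and mitochondria-linked kinase HRI, fell by 0.24 at 150 µg/ml (adjusted p = 7.5e-04), a call that was lost with total counts (−0.05, adjusted p = 0.39).

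Of 12 genes for eIF2, its exchange factor eIF2B and its phosphatases, 5 fell and 7 did not pass at 75 µg/ml, and 1 rose and 7 fell at 150 µg/ml (medians −0.15 and −0.18). With total counts 2 rose and 2 fell at 75 µg/ml and 3 rose and 3 fell at 150 µg/ml. PPP1CC, a catalytic subunit of protein phosphatase 1, fell by 0.62 and 0.91 at 75 and 150 µg/ml (SE 0.045 and 0.0454, adjusted p = 1.1e-08 and 3.2e-11), opposite in direction to its targeting subunit PPP1R15A, and fell by 0.50 and 0.72 with total counts. Other catalytic subunit genes, named after their values were seen, changed less. PPP1CA was at −0.09 and −0.23 (adjusted p = 0.172 and 0.00133 in edgeR), and PPP1CB at 0.05 and 0.02 (adjusted p = 0.453 and 0.812). EIF2S1, which encodes the eIF2 subunit that the kinases phosphorylate, fell by 0.32 and 0.31 (adjusted p = 4.0e-05 and 3.4e-05). The 1 gene that rose at 150 µg/ml was EIF2S2, another eIF2 subunit gene, named after its values were seen. EIF2S2 was at 0.02 at 75 µg/ml (adjusted p = 0.767 in edgeR) and 0.19 at 150 µg/ml (adjusted p = 0.00195). EIF2B3, an eIF2B subunit gene, fell by 0.30 and 0.48 (adjusted p = 0.0272 and 7.6e-04), the call at 75 µg/ml being lost with total counts (adjusted p = 0.193). Of the 5 genes that relay mitochondrial or ribosomal stress to these kinases, all 5 missed the threshold at 75 µg/ml, and ABCF3 alone passed there with total counts (0.24, adjusted p = 0.00417). At 150 µg/ml, ABCF3 rose by 0.16 (adjusted p = 0.0332; 0.15 and adjusted p = 0.0568 with DESeq2 size factors) and GCN1, the coactivator of GCN2, fell by 0.14 (adjusted p = 0.0267), which was 0.05 with total counts and did not pass (adjusted p = 0.435). With total counts 3 of the 5 rose and none fell at 150 µg/ml.

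Downstream, 41 other genes known as ATF4 targets, none of them among the 10, largely rose. Of the 37 tested, 33 rose and 4 fell at 75 µg/ml (median 0.54, against 0.01 over all genes), 32 rose and 2 fell at 150 µg/ml (median 0.97, against 0.03) and 30 rose and 1 fell at 150 against 75 µg/ml (median 0.36, against 0.00). Some of these genes belong to lists used on these data earlier, so the counts are a description and not independent evidence. SLC7A11, the cystine transporter subunit gene, rose by 1.41 and 1.91 on the log2 scale at 75 and 150 µg/ml (SE 0.0457 and 0.046, adjusted p = 5.7e-13 and 4.9e-15 in edgeR). ADM2, a gene for a secreted peptide hormone, had 3.91 and 4.84 CPM in DMSO libraries, 31.6 and 31.6 CPM at 75 µg/ml and 62.0 and 60.3 CPM at 150 µg/ml. ADM2 thus rose by 2.85 and 3.80 (SE 0.122 and 0.115, adjusted p = 1.8e-11 and 6.7e-14). WARS1, the tryptophanyl-tRNA synthetase gene, rose by 0.98 and 1.47 (SE 0.0466 and 0.0465, adjusted p = 6.0e-11 and 9.3e-14).

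The 4 ATF4 targets that fell at 75 µg/ml were ALDH18A1, SLC7A1, SLC38A2 and TARS1, named after their values were seen. ALDH18A1, which encodes the first enzyme of proline synthesis, fell at both doses (−0.53 and −0.89, adjusted p = 1.4e-06 and 1.2e-09 in edgeR), and so did SLC7A1, which encodes an arginine and lysine transporter (−0.47 and −0.32, adjusted p = 2.8e-07 and 1.3e-05). SLC38A2, a neutral amino acid transporter gene, was at −0.20 (adjusted p = 0.00324) and −0.07 (adjusted p = 0.227), and its value at 150 µg/ml was 0.12 with total counts. TARS1, the threonyl-tRNA synthetase gene, was at −0.15 (adjusted p = 0.0095) and 0.01 (adjusted p = 0.847). With total counts, 2 of the 37 fell at each dose.

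**Figure D4:**
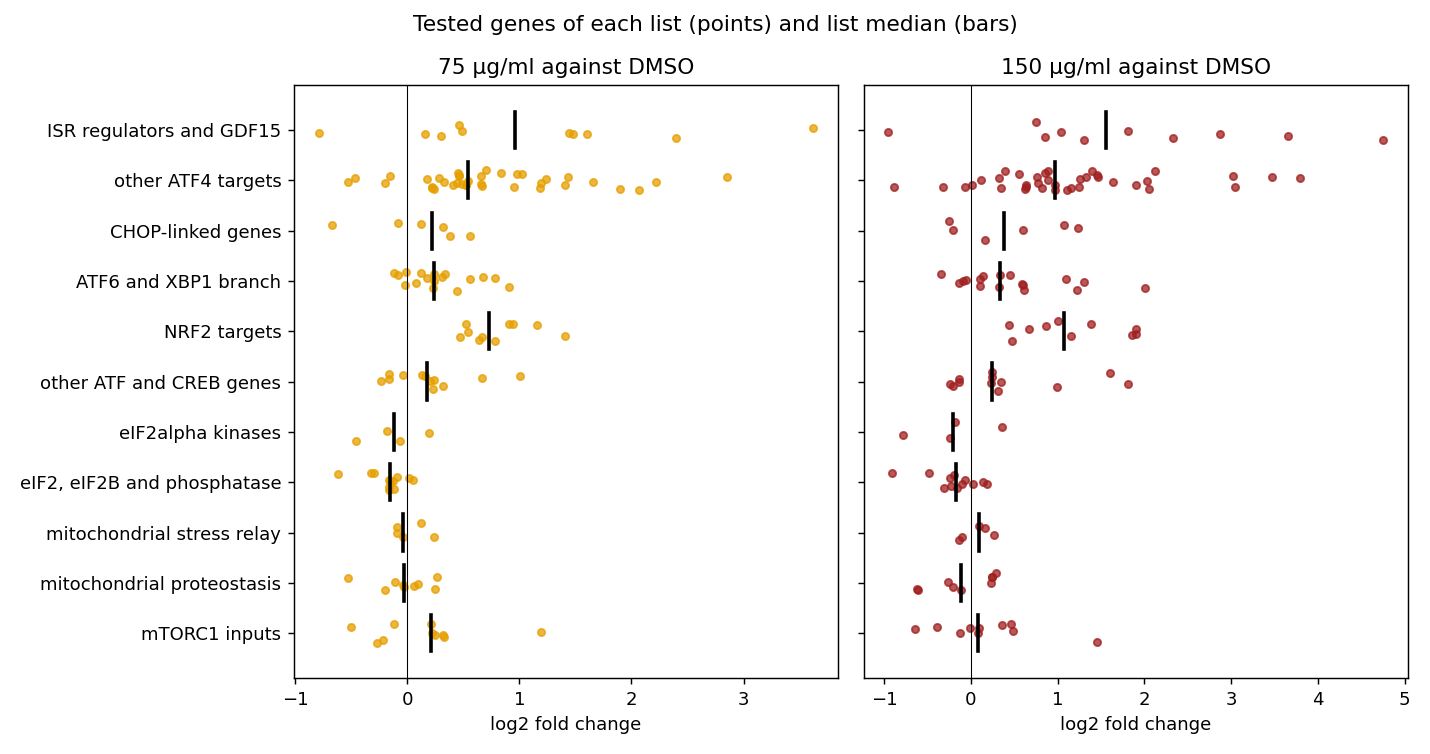
Log2 fold changes at 75 µg/ml against DMSO (left) and 150 µg/ml against DMSO (right) of the tested genes in 11 gene lists (points), with list medians (black bars). The other ATF4 targets (medians 0.54 and 0.97) and NRF2 targets (0.73 and 1.08) lie mostly right of 0, whereas the eIF2 kinases and the eIF2, eIF2B and phosphatase genes lie near or left of it.

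Of 6 tested genes linked to CHOP, 3 rose and 1 fell at 75 µg/ml (median 0.22), and 4 rose and 1 fell at 150 µg/ml (median 0.38). TNFRSF10B, which encodes the death receptor DR5, rose by 0.32 and 0.60 (adjusted p = 4.8e-05 and 1.4e-08 in edgeR). PMAIP1 and BBC3, which encode the pro-apoptotic proteins NOXA and PUMA, rose by 0.38 and 1.24 (adjusted p = 0.0122 and 3.3e-08) and by 0.56 and 1.08 (adjusted p = 0.0235 and 6.5e-05). The gene that fell at 75 µg/ml was BCL2L11, encoding the pro-apoptotic protein BIM, at −0.67 (adjusted p = 2.9e-04). At 150 µg/ml the one that fell was ERO1A, an endoplasmic reticulum oxidase gene, at −0.25 (adjusted p = 4.9e-04), and it did not pass with total counts (−0.06, adjusted p = 0.337); both genes were named after their values were seen.

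The other branches of the unfolded protein response, run by ATF6 and XBP1, were represented by 17 tested genes. Of these, 11 rose and 6 did not pass at 75 µg/ml (median 0.24), and 11 rose and 1 fell at 150 µg/ml (median 0.34). XBP1 itself rose by 0.78 and 1.22 (SE 0.0608 and 0.0601, adjusted p = 2.9e-08 and 2.6e-11 in edgeR). DNAJB9, a chaperone gene driven by XBP1, had 15.3 and 15.8 CPM in DMSO libraries, 28.97 and 29.6 CPM at 75 µg/ml and 68.4 and 56.9 CPM at 150 µg/ml, and rose by 0.91 and 2.01 (adjusted p = 3.7e-06 and 3.9e-11). HERPUD1, which takes part in the removal of misfolded protein, rose by 0.56 and 1.10 (adjusted p = 1.2e-06 and 7.2e-11).

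NRF2, the main factor of the oxidative stress response, is known to act on some of the same targets, SLC7A11 and SESN2 among them. All 10 tested NRF2 targets rose at both doses (medians 0.73 and 1.08), and the second dose step was smaller than the first on the log2 scale in 8 of them. HMOX1, heme oxygenase, rose by 1.16 and 1.86 and TXNRD1, thioredoxin reductase, by 0.67 and 1.00 (adjusted p = 8.8e-09, 4.3e-12, 6.5e-09 and 1.3e-11 in edgeR).

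Among other ATF and CREB family genes, 5 of 12 rose and 1 fell at 75 µg/ml (median 0.18), and 8 rose and 1 fell at 150 µg/ml (median 0.25). ATF3, a repressor and activator induced by ATF4 and by many other stresses, answered to the higher dose. It had 8.32 and 8.44 CPM in DMSO libraries, 9.96 and 9.85 CPM at 75 µg/ml and 35.5 and 23.4 CPM at 150 µg/ml. Its change at 75 µg/ml was 0.24 and did not pass (SE 0.185, adjusted p = 0.332 in edgeR), while it rose by 1.81 at 150 µg/ml over DMSO (SE 0.167, adjusted p = 7.7e-08) and by 1.57 over 75 µg/ml (SE 0.162, adjusted p = 2.8e-06), and the second step was larger than the first by 1.33 (SE 0.306, adjusted p = 0.00805). CREM rose by 0.67 and 0.99 and JDP2, a partner and repressor in this family, by 1.01 and 1.60 at 75 and 150 µg/ml.

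Of the other C/EBP genes, CEBPA and CEBPE were too low to test, CEBPD did not pass at either dose and CEBPZ fell by 0.27 and 0.30 (adjusted p = 0.00174 and 4.0e-04 in edgeR), which did not pass with total counts (adjusted p = 0.0714 and 0.12). Close relatives of the effectors did not share their direction throughout. TRIB2 fell by 0.99 at 150 µg/ml (SE 0.115, adjusted p = 1.4e-06), with −0.09 at 75 µg/ml (adjusted p = 0.557), and TRIB1 rose by 0.80 and 0.96 (adjusted p = 9.9e-04 and 9.8e-05). CHAC2, a slower glutathione-degrading relative of CHAC1, fell by 0.60 and 0.63 (SE 0.11 each, adjusted p = 3.3e-04 and 1.2e-04), also with total counts (−0.47 and −0.44). In all, 1 of 5 relatives rose and 1 fell at 75 µg/ml, and 2 rose and 2 fell at 150 µg/ml.

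Mitochondrial chaperones and proteases, some of which are known ATF5 targets, gave 1 rise and 2 falls among 9 tested at 75 µg/ml (median −0.03) and 4 rises and 4 falls at 150 µg/ml (median −0.11), and with total counts 4 rises and 1 fall at each dose. HSPD1, the chaperonin gene, fell by 0.53 and 0.62 (adjusted p = 5.4e-08 and 2.6e-09 in edgeR). HSPA9, the mitochondrial HSP70 gene, rose by 0.23 at 150 µg/ml (adjusted p = 1.3e-04), with 0.06 at 75 µg/ml (adjusted p = 0.293), and the protease gene LONP1 rose by 0.27 and 0.24 (adjusted p = 2.3e-04 and 3.4e-04). Of 10 tested genes that feed into mTORC1, where SESN2 acts, 2 rose and 2 fell at 75 µg/ml (median 0.22), and 4 rose and 2 fell at 150 µg/ml (median 0.08), while with total counts 5 rose and 1 fell at 75 µg/ml and 5 rose and 2 fell at 150 µg/ml. DDIT4, an mTORC1 inhibitor and ATF4 target, rose by 1.19 and 1.45 (adjusted p = 2.2e-07 and 6.3e-09), SEH1L fell by 0.50 and 0.64 (adjusted p = 8.8e-07 and 1.7e-08) and NPRL3 fell by 0.22 and 0.39 (adjusted p = 0.036 and 5.3e-04), the NPRL3 call at 75 µg/ml being lost with total counts (adjusted p = 0.371).

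ATF4 with a C/EBP partner binds a composite element, and CREB and ATF dimers bind a palindrome. Both were searched on both strands of the RefSeq promoter windows on GRCh38.p14, from 250 bases before to 50 bases after a start, as TGATGNAA for the first and TGACGTCA for the second, and no window of the 10 genes held both. All 10 genes had a window, 18 in all. The composite element was found in 2 of the 10 genes, CHAC1 and CEBPG (20.0%), against 4.46% of 27305 genes. The palindrome was found in 1, PPP1R15A (10.0%), against 2.25%. A gene with more windows has more room for a match. By window the shares were 11.1% against 3.62% of 35116 windows for the composite element, and 5.56% against 1.85% for the palindrome. Of 12 other ATF and CREB genes, 4 (33.3%) held the composite element and 2 (16.7%) the palindrome. Of the other ATF4 targets, 12 of 31 genes with a window (38.7%) held the composite element. The stretches of 30 bases around the matches in the 3 genes are printed because these genes moved with dose, with the match in capitals and each read 5′ to 3′ on the gene's own strand, here the plus strand:
CHAC1, chr15:40953251-40953280, 209 to 202 bases before the start: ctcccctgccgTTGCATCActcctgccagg
CEBPG, chr19:33374060-33374089, 42 to 35 bases before the start: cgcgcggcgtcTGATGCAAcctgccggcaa
PPP1R15A, chr19:48872352-48872381, 58 to 51 bases before the start: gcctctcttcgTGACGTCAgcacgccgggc

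The CHAC1 match reads in the orientation opposite to the gene and lies within the first exon of 2 GENCODE transcripts that start further upstream, the CEBPG match lies in an intron of 1 transcript, and the PPP1R15A match lies outside the gene model. For comparison, the same composite element in 3 other ATF4 targets is printed 5′ to 3′ along the gene's strand, which is plus for GARS1 and minus for AARS1 and ASNS. These 3 were named after their values were seen. The element runs opposite to the gene in AARS1 and GARS1, as in CHAC1, and in the direction of the gene in ASNS, as in CEBPG:
AARS1, chr16:70289675-70289704: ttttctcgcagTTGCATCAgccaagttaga
GARS1, chr7:30594834-30594863: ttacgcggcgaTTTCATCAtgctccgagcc
ASNS, chr7:97872458-97872487: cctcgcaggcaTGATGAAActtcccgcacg

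AARS1 and GARS1, both tRNA synthetase genes, rose by 0.70 and 1.16 and by 0.67 and 1.11 at 75 and 150 µg/ml, and ASNS, asparagine synthetase, rose by 1.90 and 3.05 from a level of 0.82 and 1.18 CPM in DMSO. CHAC1 and CEBPG, which hold the same element, rose by 3.66 and 0.75 at 150 µg/ml, whereas GDF15, with the largest rise over DMSO, had no match in its 1 window. A match is a description of these letters and not a site in use.

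Finally, the genes whose log2 CPM ran closest to a member over the 6 libraries were found among 9499 genes with a mean of at least 10 CPM, by the root mean square distance after centring. For GDF15 they included the antisense gene ZMIZ1-AS1 (distance 0.132) and the cytokine gene IL24 (0.209). ZMIZ1-AS1 averaged 0.903 ± 0.297, 13.7 ± 0.554 and 26.7 ± 1.64 CPM (SD, 2 libraries) in DMSO, 75 µg/ml and 150 µg/ml libraries, a course close to that of GDF15 in level as well. The mean was taken over all 6 libraries, so a gene under 10 CPM in DMSO could enter only through higher treated libraries. The likeness of such genes to a member that rose is thus partly set by this filter. For CHAC1 they were ADM2 (0.244), CXCL2 (0.252) and IL1B (0.27), a peptide hormone and a pair of inflammatory cytokine genes. DDIT3 ran closest to GFPT1, the rate-limiting enzyme gene of hexosamine synthesis (0.0946), MIA2, which takes part in export from the endoplasmic reticulum (0.11), and CREBRF (0.117). ATF5 ran closest to ATAD3B, a mitochondrial ATPase gene (0.0472), PUS7, a pseudouridine synthase gene (0.0542), and BEND3 (0.0567), all lower at both doses. With 3 groups of 2 libraries such closeness mostly reflects the order and size of the group means.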

How the data were processed

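RNA was measured in 6 libraries, 2 each with DMSO, 75 and 150 µg/ml AF-EAE for 24 h. The authors deposited raw read counts for 60651 genes, and the 5 summary rows of each file stayed out of library sizes and tests. Per the submitters' processing notes, HISAT2 2.2.1, HTSeq 2.0.2 and hg38 were used. Reads in no gene made up 6.32% to 7.98% and reads ambiguous between genes 10.95% to 11.48% of the gene counts and 5 summary rows together. A gene that overlaps another may therefore be read too low, depending on whether strand was used.

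Counts were tested with edgeR 4.0.16 (R 4.3.3), with TMM scaling and its default filter on low counts by group (15589 genes kept, 45062 removed). The quasi-likelihood F-test was fitted to all 6 libraries with 1 mean for each group, and p was adjusted by Benjamini-Hochberg at 0.05. The common dispersion was 0.00258, with 3 residual and 13.8 prior degrees of freedom, and each SE was computed from the F statistic of its contrast. Gene lists held 213 symbols, 212 of them on a row: the 10 genes, 15 pathway lists and 4 lists of cell type markers. Of the 176 pathway genes on a row, 151 were tested. For each list reported, the text gives counts and names up to 3 genes with the smallest p, and others are said to be named after their values were seen. Genes that overlap a member, and some too low to test, are named as well. The members and lists were chosen with earlier results of these data known. Exon lengths and positions are from GENCODE 29 and promoter windows from RefSeq (GRCh38.p14). Alternatives were DESeq2 size factors or total counts for scaling, no filter or 5 CPM in 2 libraries, DESeq2 1.42.0, limma-voom (limma 3.58.1), fits restricted to the compared groups, a replicate block, leaving out libraries 1 by 1, and stricter thresholds (adjusted p under 0.01, or a log2 change of at least 1 in size). A few results that these rules take are not reported here.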

Additional observations from a re-analysis of the deposited data

How the results depend on the processing

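No member's log2 fold change reversed in any of 550 recomputed values: 536 kept their direction and side of the threshold, 12 kept the direction but no longer passed and 2 newly passed, all given beside the results above. The counts that moved by over 1.5 times did so mostly under a stricter threshold, by construction. With a log2 change of at least 1 in size also required, 5 of the 10 genes passed at 75 µg/ml against DMSO, 3 at 150 against 75 µg/ml and 3 for the difference of the dose steps. Over all genes, 936 then passed at 75 and 1827 at 150 µg/ml against DMSO, 226 at 150 against 75 µg/ml and 451 for the steps. Of the pathway genes, 17, 36, 6 and 6 passed in the same order. At an adjusted p under 0.01, 1883 genes passed at 150 against 75 µg/ml and 987 for the steps, and 23 pathway genes for the steps. In DESeq2, 3 of the 10 genes passed for the steps, against 6 in edgeR, and the cause was not tested.

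Leaving out each library in turn gave 3 to 7 of the 10 genes, 890 to 2213 of all genes and 18 to 40 pathway genes for the steps, and 1507 to 3714 genes at 150 against 75 µg/ml. These fits have fewer samples, and the low counts for the steps came without replicate 1 at 75 µg/ml, while 1507 came without replicate 1 at 150 µg/ml. Other counts that moved by over 1.5 times were 1990 genes at 150 against 75 µg/ml without replicate 1 at 75 µg/ml, and, for the steps, 1037 genes and 25 pathway genes without replicate 2 at 75 µg/ml and 1355 genes without replicate 1 at 150 µg/ml. A lone library left in a group was assumed to vary like the other groups. For the other counts the ranges were 8 to 9 genes (75 µg/ml), 10 to 10 (150 µg/ml) and 8 to 9 (150 against 75 µg/ml).

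With the replicate number as a block, 9, 10, 9 and 6 of the 10 genes passed for 75 and 150 µg/ml against DMSO, 150 against 75 µg/ml and the steps, as without it, and 6292, 8194, 3776 and 2499 of all genes. Deviations of same-numbered libraries correlated at 0.058, 0.038 and −0.006, and the labels do not say that a number marks a shared culture or day, so the pairing was not used.

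With total counts in place of TMM, 4501 genes rose and 1816 fell at 75 µg/ml against DMSO (TMM 2989 and 3026), and 6031 rose and 2542 fell at 150 µg/ml (TMM 4022 and 4000). For 150 against 75 µg/ml the split was 2206 and 1345 (TMM 1482 and 1951), and for the steps 666 larger and 1594 smaller (TMM 914 and 1154). The direction of each of the 10 genes was the same under both scalings and under DESeq2 size factors. Depth limits GDF15 in DMSO most, at 19 and 24 counts.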
